A study of Mus musculus with 36 samples.

Results

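The 8 transcripts described here, Fgf4, Dusp6, Spry2, Spry4, Spred1, Spred2, Etv4 and Etv5, encode the main FGF ligand of mouse embryonic stem cells (mES cells), 5 inhibitors of the signalling it starts and 2 transcription factors made in response to it. They were taken by gene symbol, and all 8 were among the 18419 genes listed in every one of the 6 tables of the series. FGF4 binds FGF receptors on the same and neighbouring cells, and the signal passes through Ras and a chain of kinases to ERK. In mES cells this signal prepares exit from naive pluripotency. ERK also switches on its own brakes. DUSP6 is a phosphatase that removes phosphate from ERK, Sprouty proteins (SPRY2, SPRY4) interfere between receptor and Ras, and SPRED proteins (SPRED1, SPRED2) recruit neurofibromin to switch Ras off. ETV4 and ETV5 are ETS-family transcription factors of the PEA3 group, and their transcripts are widely read as a gauge of FGF and ERK activity.

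SLAM-seq was performed in XX mES cells of a Cast x 129S background, in which the Xist gene on the 129S allele carries Bgl stem loops and a TetOn promoter. All 36 libraries, Ctrl included, came from cells given doxycycline (1 µg/ml) for 20 h before and then during a 4 h pulse of 500 µM 4-thiouridine (4sU), so Xist was induced in every group. In 3 degron lines METTL3, YTHDC1 or ZCCHC8 (clones 12D, Y12H and Z12H) was fused to FKBP12 F36V, a tag that marks the protein for degradation once dTAG-13 is added. METTL3 catalyses the addition of N6-methyladenosine (m6A) to RNA, YTHDC1 reads that mark in the nucleus, and ZCCHC8 belongs to the NEXT complex, which delivers nuclear RNA to the exosome. The dTAG arm received dTAG-13 from 2 h before doxycycline, and the Ctrl arm was untreated. RNA was collected after 0, 90 or 180 min of chase in 50 mM uridine, in 2 replicates, giving 18 groups of 2 and 6 libraries per line and arm. Each line was 1 clone and no untagged line with dTAG-13 was analysed here, so the compound and the loss of the protein cannot be told apart. Cells had been grown on fibroblast feeders, which were removed by preplating.

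GGACT, in which the A can be methylated, is the commonest core of the motif that the METTL3 complex recognises, and it was searched on the transcript strand of the longest annotated coding transcript of each gene (GENCODE, mm10). It occurred at least once in 92.1% of 14674 coding genes tested, with a median of 1.05 sites per kb. Spry2 (7 sites, 3.35 per kb) and Dusp6 (8 sites, 2.86 per kb) were the densest of the 8, above 98.7% and 97.3% of those genes. Etv4 had 1 site and Spry4 had 2, in both cases 0.42 per kb, above 14.1% and 14.2% of genes. Fgf4 had 4 sites, Spred1 had 4, Spred2 had 7 and Etv5 had 6. For the 7 genes below, the site nearest the stop codon is shown, since m6A gathers near stop codons, within 29 bases of genome sequence in transcript orientation and with GGACT in capitals. A match says nothing of whether the base carried the mark in these cells.
Fgf4, coding sequence, chr7:144861702-144861730, plus strand: cagcggcgcaggGGACTacctgctgggcc
Dusp6, coding sequence, chr10:99266266-99266294, plus strand: cgtctaccaggtGGACTccctgcagtcta
Spry2, coding sequence, chr14:105893088-105893116, minus strand: tcattgactatgGGACTtgtgtgtgctgt
Spred1, 3′ UTR, chr2:117178261-117178289, plus strand: cactaggtgatgGGACTttttaaagattt
Spred2, coding sequence, chr11:20021003-20021031, plus strand: tgttgattcttcGGACTtcggcttcgggg
Etv4, 3′ UTR, chr11:101770020-101770048, minus strand: ggggacatacagGGACTtcccttgtttat
Etv5, 3′ UTR, chr16:22383115-22383143, minus strand: tgcgttgatcatGGACTactaaaatgcct
The Dusp6 site lay 22 bases before the end of the stop codon, and the other 6 lay between 302 and 433 bases from it. AU-rich pentamers (ATTTA), found in many short-lived mRNAs, were counted in the 3′ UTR. There were 12 in Spred1, 7 in Spry4, 6 in Fgf4, 5 in Etv5, 4 in Spred2, 2 in Spry2, 1 in Dusp6 and none in Etv4. Per kb of 3′ UTR these were 2.77, 1.97, 2.61, 2.31, 1.55, 2.34 and 0.84 for the first 7, where the median of coding genes was 1.24. A link between these counts and label loss was not tested.

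Libraries held 5274684 to 18652000 reads, with the ZCCHC8 line the shallowest (5274684 to 10257631). The summed level of 10 mES cell markers was 2768 to 4187 CPM (reads scaled to a common library size after TMM normalisation) in all libraries. That of 10 feeder fibroblast markers was 7.42 to 32.3 CPM, with Lum at 0 in every METTL3 Ctrl library. mRNA of the tagged gene does not report loss of the protein. In its own line Mettl3 was at 58.2 ± 4.24 CPM (Ctrl) against 57.7 ± 3.11 CPM (dTAG), Zcchc8 at 35.3 ± 5.47 and 35.5 ± 3.87 CPM, and Ythdc1 at 249 ± 57.6 and 370 ± 37.1 CPM (mean ± SD, n = 6 libraries).

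In untreated cells Fgf4 and Etv5 stood well above their relatives and Spry4 was the faintest of the 8. Per kb of transcript, Fgf4 was at 67.5 ± 17.3 CPM per kb over the 18 Ctrl libraries, higher than 92.6% of genes tested, and Etv5 at 51.9 ± 7.34 CPM per kb, higher than 90.0%. Etv4 followed at 23.5 ± 5.69, Spry2 at 12.5 ± 4.60, Dusp6 at 8.61 ± 1.86, Spred1 at 8.06 ± 0.862, Spred2 at 6.48 ± 2.07 and Spry4 at 1.67 ± 0.552 CPM per kb. Of neighbours in this order, the library ranges did not overlap for Etv5 and Etv4 (lowest 43.0 against highest 31.0 CPM per kb), and they overlapped for every other pair. Spry4 was counted from 45 to 253 reads per library, so its values carry the largest counting error.

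**Figure D1:**
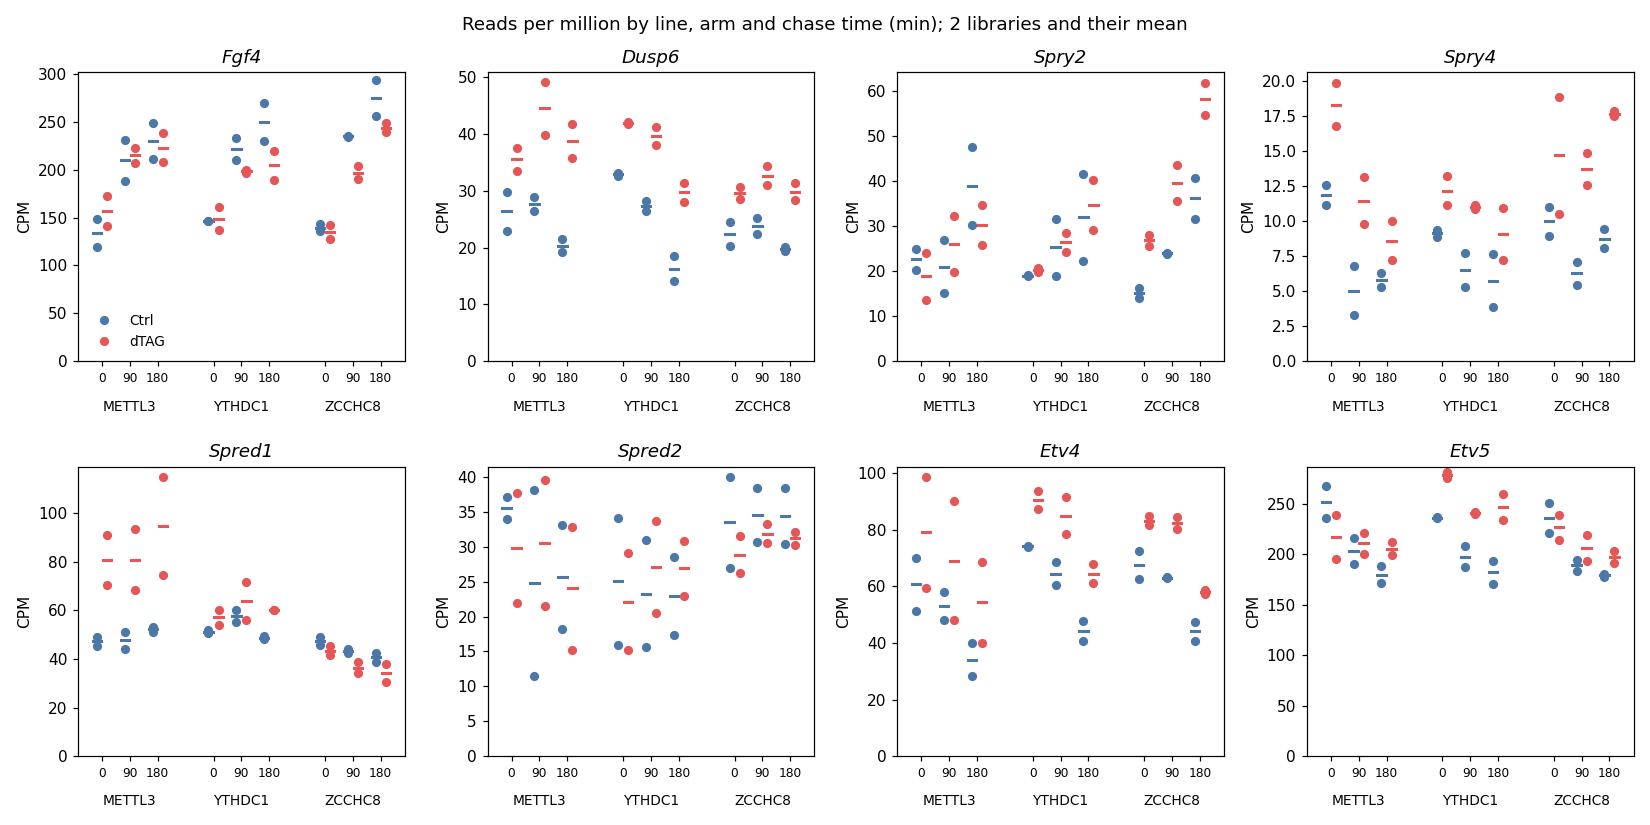
CPM (vertical axis, linear from 0) of each of the 8 genes by line, arm and minutes of chase (horizontal axis); each point is 1 library and each short line the mean of 2. Dusp6 was higher in the dTAG library of all 6 pairs in every line, while Fgf4 rose with chase time in both arms.

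Treatment with dTAG-13 was followed by higher Dusp6 in all 3 lines, and by gains of other inhibitors and of the PEA3 factors that were called in some lines only. Reads were compared between 6 dTAG and 6 Ctrl libraries of a line with chase time as a factor (edgeR quasi-likelihood test, p adjusted by Benjamini and Hochberg across every tested gene, threshold 0.05). Of the 8 genes, 3 rose and none fell in the METTL3 line, where 11.3% of tested genes rose. In the YTHDC1 line 3 rose, against 2.48% of tested genes, and in the ZCCHC8 line 5 rose, against 20.1%. The median log2 fold change of the 8 was 0.30, 0.26 and 0.28 in the METTL3, YTHDC1 and ZCCHC8 lines, where that of all genes was 0.01, 0.01 and -0.003. With the replicate number as a block, which the data showed to pair libraries, 4, 5 and 5 of the 8 rose (24.4%, 13.2% and 23.1% of all genes). 1 then fell in YTHDC1 and 1 in ZCCHC8, against 14.1% and 22.8% of all genes.

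**Figure D2:**
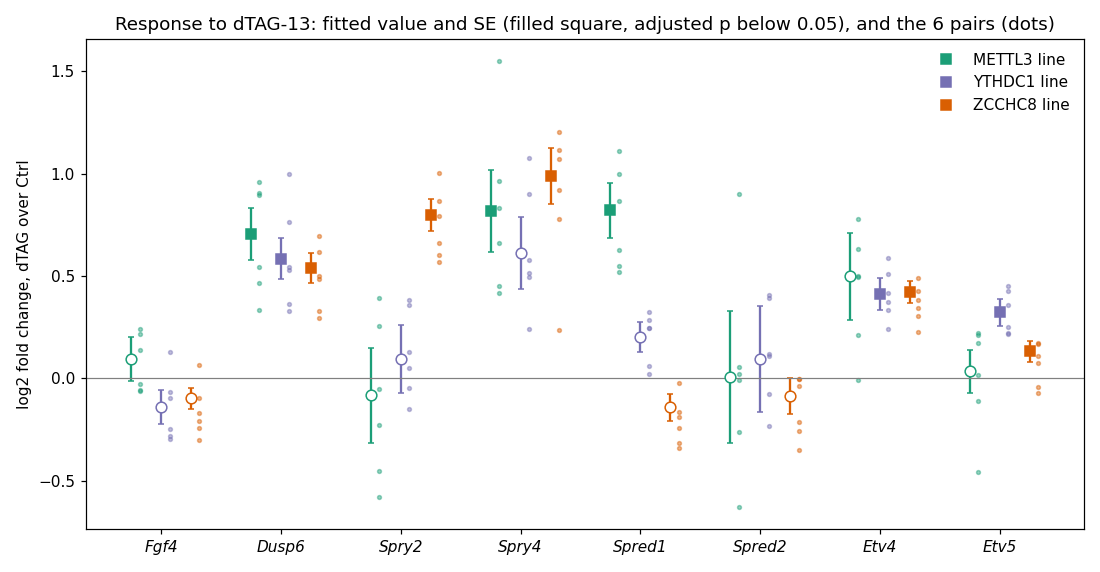
Fitted log2 fold change of reads, dTAG against Ctrl, with its standard error, for the 8 genes in the 3 lines; filled squares are past an adjusted p of 0.05, open circles are not, and small dots are the 6 pairs of a replicate and chase time. Dusp6 lies between 0.54 and 0.71 in all 3 lines, whereas Spred1 lies at 0.82 in METTL3, 0.20 in YTHDC1 and -0.14 in ZCCHC8.

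Dusp6 (ENSMUSG00000019960, chr10:99263231-99267489, plus strand, mm10) was the only one of the 8 called in every line without the replicate block. With it Spry4 and Etv4 were also called higher in every line, and Spred1 was called higher in METTL3 and YTHDC1 and lower in ZCCHC8. In the METTL3 line it was at 19.1, 24.7 and 29.8 CPM (lowest, median and highest of 6) in Ctrl and at 33.5, 38.7 and 49.1 CPM in dTAG. The arms did not overlap, and the log2 fold change was 0.71 (SE 0.13 and edgeR adjusted p 0.00304). In the ZCCHC8 line it was at 19.4, 21.4 and 25.2 CPM in Ctrl and 28.3, 30.8 and 34.3 CPM in dTAG, again without overlap, with a log2 fold change of 0.54 (SE 0.07 and edgeR adjusted p 3.25e-06). In the YTHDC1 line Ctrl libraries spanned 14.1 to 33.1 CPM and dTAG libraries 28.1 to 42.0 CPM, with medians of 27.3 and 39.6 CPM. These arms overlapped, and within each pair of a replicate and time dTAG was the higher, with a log2 fold change of 0.58 (SE 0.10 and edgeR adjusted p 0.00767). The log2 ratio of the arm means was 0.43, 0.69 and 0.93 at 0, 90 and 180 min in METTL3, 0.35, 0.54 and 0.87 in YTHDC1 and 0.40, 0.46 and 0.60 in ZCCHC8 (n = 2 libraries per arm and time). Dusp4, the nuclear ERK phosphatase, also rose in all 3 lines, by 1.06, 0.72 and 1.12 on the log2 scale (edgeR adjusted p 0.000554, 0.00487 and 1.31e-09).

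The paper states that the wells of a biological replicate shared a batch of cells. Calls in the METTL3 and YTHDC1 lines rest on treating the 3 chase libraries of a replicate as separate samples, which the labels do not settle. When these were summed, leaving 2 dTAG against 2 Ctrl samples, no gene passed in either line (0 of 15895 in METTL3 and 0 of 15513 in YTHDC1, with 1433 and 696 at an unadjusted p below 0.05 by edgeR). The fitted log2 fold change of Dusp6 was then 0.67 (edgeR adjusted p 0.538) and 0.57 (edgeR adjusted p 1.00). In the ZCCHC8 line Dusp6, Spry2, Spry4 and Etv4 were called in the summed data too, and Etv5 was not (edgeR adjusted p 0.155). Without the 0 min libraries none of the 8 was called in YTHDC1, Dusp6 having a log2 fold change of 0.69 (edgeR adjusted p 0.0758), but this fit called only 27 of 14081 genes.

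Spry2 (ENSMUSG00000022114, chr14:105891947-105896819, minus strand) was called in the ZCCHC8 line and in neither of the others. Its Ctrl libraries there were at 14, 23.9 and 40.7 CPM (lowest, median, highest) and its dTAG libraries at 25.7, 39.6 and 61.8 CPM. The ranges overlapped across chase times, dTAG was higher in 6 of 6 pairs, and the log2 fold change was 0.80 (SE 0.08 and edgeR adjusted p 1.24e-08). In METTL3 the medians were 26.0 CPM in Ctrl and 24.99 CPM in dTAG, with a log2 fold change of -0.08 (SE 0.23 and edgeR adjusted p 0.849). In YTHDC1 they were 20.7 and 26.4 CPM, with a log2 fold change of 0.10 (SE 0.17 and edgeR adjusted p 0.848). Replicates of Spry2 stood far apart in METTL3 Ctrl, where the 180 min libraries were at 30.2 and 47.5 CPM.

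Spry4 (chr18:38586247-38601415, minus strand) was higher with dTAG-13 in 6 of 6 pairs in every line. It is overlapped on the opposite strand by the short annotated RNAs Gm27369 and Gm27804, whose reads cannot be told apart from its own where strand was not used in counting. In ZCCHC8 it was at 5.47, 8.51 and 11.0 CPM in Ctrl and 10.5, 16.2 and 18.9 CPM in dTAG (lowest, median, highest), a log2 fold change of 0.99 (SE 0.13 and edgeR adjusted p 3.82e-06). In METTL3 it was at 3.34, 6.54 and 12.6 CPM and at 7.23, 11.6 and 19.8 CPM, a log2 fold change of 0.82 (SE 0.20 and edgeR adjusted p 0.015). The arms overlapped in each line. Without the 0 min libraries the METTL3 value was 0.89 (edgeR adjusted p 0.123). In YTHDC1 the medians were 7.68 and 11.0 CPM, and the log2 fold change of 0.61 (SE 0.18) passed with the replicate block (edgeR adjusted p 0.00067) and not without it (edgeR adjusted p 0.0698).

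Spred1 (chr2:117121374-117182279, plus strand) had the widest spread between lines. In METTL3 it was at 44.2, 50.1 and 53.3 CPM in Ctrl and at 68.2, 82.8 and 114.9 CPM in dTAG, with every dTAG library above every Ctrl library. The log2 fold change was 0.82 (SE 0.13 and edgeR adjusted p 0.0019). In YTHDC1 it was at 48.1, 51.3 and 60.2 CPM and at 54.0, 60.1 and 71.5 CPM, higher in 6 of 6 pairs. The log2 fold change of 0.20 (SE 0.07) had an edgeR adjusted p of 0.157, and of 0.0106 with the replicate block. In ZCCHC8 it was at 38.9, 43.2 and 49.1 CPM and at 30.7, 38.2 and 45.2 CPM, lower in 6 of 6 pairs. There the log2 fold change of -0.14 (SE 0.06) had an edgeR adjusted p of 0.0844, and of 0.0467 with the replicate block. Its relative Spred2 (chr11:19924375-20024026, plus strand) was called in no line, with log2 fold changes of 0.01 (SE 0.32) in METTL3, 0.10 (SE 0.26) in YTHDC1 and -0.09 (SE 0.09) in ZCCHC8. Spred2 libraries ranged from 11.5 to 38.1 CPM within METTL3 Ctrl alone, so 95% intervals of -0.63 to 0.64 in METTL3 and -0.41 to 0.61 in YTHDC1 leave room for sizeable changes.

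Both PEA3 factors rose in YTHDC1 and ZCCHC8, and neither was called in METTL3. Etv4 (chr11:101769742-101785371, minus strand) was at 40.8, 64.5 and 74.3 CPM in YTHDC1 Ctrl and at 61.2, 83.0 and 93.7 CPM in dTAG, a log2 fold change of 0.41 (SE 0.08 and edgeR adjusted p 0.0124). In ZCCHC8 it was at 40.9, 62.7 and 72.5 CPM and at 57.4, 80.9 and 84.9 CPM, a log2 fold change of 0.42 (SE 0.05 and edgeR adjusted p 9.56e-07). In both lines dTAG was higher in 6 of 6 pairs, although the arms overlapped. With all 36 libraries in 1 fit neither passed (edgeR adjusted p 0.156 and 0.129), whereas Etv4 in METTL3 then did (0.48, edgeR adjusted p 0.0217). In METTL3 it was at 28.3, 49.8 and 70.1 CPM and at 40.0, 64.0 and 98.8 CPM, higher in 5 of 6 pairs. The log2 fold change there of 0.50 (SE 0.21 and edgeR adjusted p 0.124) became 0.46 (SE 0.09 and edgeR adjusted p 0.00048) with the replicate block. In the METTL3 dTAG arm the 2 replicates of Etv4 stood apart at each time, at 59.4 and 98.8 CPM at 0 min.

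Etv5 (chr16:22381309-22439719, minus strand) rose in YTHDC1, from 171.0, 201 and 236 CPM in Ctrl to 234, 251 and 281 CPM in dTAG, higher in 6 of 6 pairs. The log2 fold change was 0.32 (SE 0.07 and edgeR adjusted p 0.0186), and with no filter on low counts its edgeR adjusted p was 0.053. In ZCCHC8 the Ctrl libraries were at 178, 189 and 251 CPM and the dTAG libraries at 192, 209 and 239 CPM, higher in 4 of 6 pairs. The log2 fold change of 0.13 (SE 0.05 and edgeR adjusted p 0.0388) was the smallest called among the 8, and it was not called with DESeq2 size factors (0.11, edgeR adjusted p 0.0955), with DESeq2 (adjusted p 0.12), with no filter on low counts, without replicate 2 or with all 36 libraries in 1 fit (edgeR adjusted p 0.105, 0.123 and 0.626). In METTL3 the medians were 203 and 206 CPM, with a log2 fold change of 0.03 (SE 0.10 and edgeR adjusted p 0.862).

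The ligand itself did not pass in any line over all chase times. Fgf4 (ENSMUSG00000050917, chr7:144847367-144865243, plus strand) was at 119, 199.9 and 249 CPM in METTL3 Ctrl and at 141, 207 and 238 CPM in dTAG, a log2 fold change of 0.09 (SE 0.11 and edgeR adjusted p 0.59). In YTHDC1 it was at 146, 220.0 and 269 CPM and at 137, 193 and 219 CPM, and in ZCCHC8 at 136, 235 and 293 CPM and at 127, 197 and 248 CPM. In both of these lines dTAG was lower in 5 of 6 pairs. The log2 fold change was -0.14 (SE 0.08 and edgeR adjusted p 0.406) in YTHDC1, which passed with the replicate block (edgeR adjusted p 0.0452). It was -0.10 (SE 0.05, edgeR unadjusted p 0.0572 and adjusted p 0.117) in ZCCHC8. The approximate 95% interval of -0.19 to -0.002 excludes 0 only because it is narrower than the test implies. Without the 0 min libraries it was called lower in ZCCHC8 (-0.15, edgeR adjusted p 0.0409), the log2 ratio of the arm means being -0.05, -0.26 and -0.17 at 0, 90 and 180 min.

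Responses were compared between lines as interactions over all 36 libraries. The METTL3 and YTHDC1 responses differed for Spred1, by 0.60 on the log2 scale (SE 0.15 and edgeR adjusted p 0.00763), and for Etv5, by -0.31 (SE 0.10 and edgeR adjusted p 0.0422), among 16.2% of genes called (40.5% with the block). The ZCCHC8 response of Spred1 lay 1.01 below that of METTL3 (-1.01, SE 0.15 and edgeR adjusted p 5.06e-05) and that of Spry2 lay above it by 0.85 (SE 0.27 and edgeR adjusted p 0.0317), among 19.5% of genes called (41.6% with the block). None of the 8 differed between ZCCHC8 and YTHDC1, where 11.0% of genes did. With the replicate block, 30.4% of genes did, and Spry2 (0.64, edgeR adjusted p 0.00126), Spred1 (-0.41, edgeR adjusted p 0.00521) and Etv5 (-0.25, edgeR adjusted p 0.0165) passed. The block also called Fgf4 for METTL3 minus YTHDC1 (0.22, edgeR adjusted p 0.0201) and for ZCCHC8 minus METTL3 (-0.23, edgeR adjusted p 0.0134). For Dusp6 the approximate 95% intervals of the 3 differences were -0.16 to 0.35, -0.45 to 0.06 and -0.36 to 0.16. These are somewhat too narrow, so differences of those sizes or somewhat larger remain possible at this spread. Spry4 and Etv4 were called in none of the 3 comparisons, with or without the block. In the same order their differences were 0.19, 0.11 and 0.29 (Spry4, SE 0.27 each) and 0.07, -0.12 and -0.05 (Etv4, SE 0.22 each).

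Other genes of the pathway, in 4 lists of ligands and receptors, cascade components, further inhibitors and ERK-responsive transcripts, moved in both directions. Called genes made up 8.8%, 2.77% and 19.5% of all genes for falls in METTL3, YTHDC1 and ZCCHC8, beside the shares for rises given above. Of 15 further ERK inhibitors tested, 4 rose in METTL3, 2 rose in YTHDC1, and 4 rose and 5 fell in ZCCHC8. Besides Dusp4, these were led in METTL3 by Spry1 (0.62, edgeR adjusted p 0.0133) and the Ras GTPase activator Rasa1 (0.55, edgeR adjusted p 0.0229). In YTHDC1 the other was Nf1, the neurofibromin that SPRED proteins recruit (0.32, edgeR adjusted p 0.0243). In ZCCHC8 they were led by the phosphatase Dusp1 (0.95, edgeR adjusted p 5.58e-08) and Spred3 (1.38, edgeR adjusted p 1.17e-05), the latter going from 1.38 ± 0.436 to 3.44 ± 0.377 CPM (n = 6).

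Among the FGF ligands, receptors and binding proteins, 4 of 16 tested rose in METTL3, and 6 rose and 2 fell of 15 in ZCCHC8. In YTHDC1 none was called (0 of 16 by edgeR), where few genes were, and with the replicate block 3 rose and 3 fell. The block there called 13.2% of all genes higher and 14.1% lower. Fgf5, a mark of the formative epiblast, went from 3.83 ± 1.18 to 7.86 ± 1.05 CPM in METTL3 (log2 fold change 1.10, edgeR adjusted p 0.00247). Fgf1 went from 3.92 ± 1.10 to 18.1 ± 4.72 CPM in ZCCHC8 (2.29, edgeR adjusted p 1.6e-10), and Fgfr2, a receptor, from 28.3 ± 6.17 to 42.9 ± 11.3 CPM (0.67, edgeR adjusted p 4.5e-07). Of 22 cascade components, 3 rose in METTL3, and 4 rose and 6 fell in ZCCHC8. In YTHDC1 none was called (0 of 22 by edgeR), and with the replicate block 4 rose and 1 fell. Eras, a Ras protein of mES cells that is active without a signal, went from 20.2 ± 8.29 to 87.8 ± 16.5 CPM in METTL3 (2.20, edgeR adjusted p 7.33e-05). In ZCCHC8 the ERK-activated kinase Rps6ka3 fell by 0.83 (edgeR adjusted p 8.69e-07) and the phosphatase Ptpn11, which relays receptor signals, fell by 0.29 (edgeR adjusted p 8.19e-06). The adaptor Frs3 rose there by 0.52 (edgeR adjusted p 2.64e-05).

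Of 15 ERK-responsive transcripts tested outside the 8, 1 fell in METTL3 (Fos, by 0.55, edgeR adjusted p 0.0384) and 1 rose in YTHDC1 (Etv1, the third PEA3 factor, by 0.52, edgeR adjusted p 0.022). In ZCCHC8 5 rose and 5 fell, with Ier2 up by 0.35 (edgeR adjusted p 1.53e-05) and the ETS factor Elk1 (-0.70, edgeR adjusted p 4.07e-07) and the AP-1 subunit Fosl1 (-0.76, edgeR adjusted p 3.47e-05) down. Their median log2 fold change was -0.06, 0.18 and 0.05 in METTL3, YTHDC1 and ZCCHC8. The replicate block moved the METTL3 cascade list to 7 risen and 8 fallen of 22, with 24.4% of all genes risen and 24.1% fallen. In METTL3 it also gave 7 risen and 3 fallen inhibitors, 6 and 3 ligands and receptors, and 1 and 4 ERK-responsive transcripts. In YTHDC1 it gave 2 and 1 inhibitors and 4 and 1 ERK-responsive transcripts. In ZCCHC8 it gave 6 and 7 cascade components and 6 and 6 ERK-responsive transcripts.

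Some markers of other states moved in the same arms. The summed level of 6 primitive endoderm markers was 13.2 to 25.9 CPM in METTL3 Ctrl and 19.4 to 37.4 CPM in dTAG, with Dab2 (1.24, edgeR adjusted p 0.00197) and Gata6 (1.10, edgeR adjusted p 0.0378) up, and 21.3 to 31.7 against 25.4 to 37.8 CPM in ZCCHC8, with Dab2 and Sox17 up. No marker of this list was at 0 throughout an arm. Over the 5 tested in METTL3 the median log2 fold change was 0.008, and with the replicate block 2 rose and 1 fell. Over the 6 tested in ZCCHC8 the median was 0.30. The summed level of 6 formative or primed epiblast markers was 329 to 628 CPM in METTL3 Ctrl and 237 to 474 CPM in dTAG, and 236 to 526 against 321 to 593 CPM in ZCCHC8, where Dnmt3b, Otx2 and Pou3f1 rose. In METTL3 1 of these 6 rose (Fgf5) and 1 fell, or 2 and 2 with the replicate block, and their median log2 fold change was 0.08. In YTHDC1 none of the 6 was called and their median log2 fold change was 0.44, with 3 risen and 1 fallen with the replicate block. Of the 10 mES cell markers 3 rose (Dppa5a, Nanog and Tdgf1) and 1 fell (Tfcp2l1) in ZCCHC8, by at most 0.24 on the log2 scale. Of the feeder markers only Acta2 was called, in METTL3 (1.30, edgeR adjusted p 0.0372). The part of these in the responses above was not tested. In bulk RNA, more cells of a kind and more RNA per cell cannot be told apart.

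During the chase Fgf4 increased in all 3 lines, while in YTHDC1 and ZCCHC8 Spry2 increased and the PEA3 factors decreased. The 90 and 180 min cultures were washed into fresh medium with uridine and harvested later, so time, wash and uridine cannot be told apart. Reads at 180 min were compared with 0 min within a line over both arms. This called 2 of the 8 in METTL3, 5 in YTHDC1 and 5 in ZCCHC8, where 16.1%, 41.0% and 60.5% of all genes were called, so the count of the 8 in ZCCHC8 was close to that of the whole table. With the block it called 5, 6 and 5 (47.3%, 67.2% and 64.3% of all genes). At 90 min it called none in METTL3, 1 in YTHDC1 and 3 in ZCCHC8 (0.243%, 6.63% and 24.8%), and with the block 2, 3 and 3 (10.1%, 32.9% and 31.2%). With either arm alone no member passed in METTL3 or YTHDC1, where few genes passed at all: at 180 min 0 in either METTL3 arm (2598 in Ctrl and 1385 in dTAG at an unadjusted p below 0.05), and 419 of 14083 in Ctrl and 507 of 14094 in dTAG of YTHDC1 (edgeR).

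Fgf4 was called at 180 min in all 3 lines, by 0.61 (edgeR adjusted p 0.0115) in METTL3, 0.61 (edgeR adjusted p 0.000675) in YTHDC1 and 0.92 (edgeR adjusted p 1.46e-11) in ZCCHC8. In ZCCHC8 Ctrl it stood at 136 and 143 CPM at 0 min, 234 and 235 CPM at 90 min and 293 and 256 CPM at 180 min, and the means of 2 kept this order in the other lines. Spry2 rose from 15.1 ± 1.59 CPM at 0 min to 36.2 ± 6.43 CPM at 180 min in ZCCHC8 Ctrl (n = 2), and over both arms by 1.18 (edgeR adjusted p 3.82e-10) in ZCCHC8 and 0.76 (edgeR adjusted p 0.0115) in YTHDC1. In METTL3 it differed by 0.70 (edgeR adjusted p 0.118, and 0.000537 with the block). Etv4 fell by 0.62 (edgeR adjusted p 0.000443) in YTHDC1 and by 0.56 (edgeR adjusted p 1.15e-07) in ZCCHC8, and was at -0.72 in METTL3 (edgeR adjusted p 0.0823, and 5.2e-05 with the block). Etv5 fell by 0.28 (edgeR adjusted p 0.0179) and by 0.29 (edgeR adjusted p 0.000233) in the same 2 lines, and was at -0.32 in METTL3 (edgeR adjusted p 0.11, and 0.0167 with the block).

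Dusp6 and Spry4 were each called lower after the chase in 1 line. Dusp6 fell by 0.75 in YTHDC1 (edgeR adjusted p 0.000663), from 32.9 ± 0.326 to 16.3 ± 3.11 CPM in Ctrl (n = 2), and was at -0.16 in METTL3 (edgeR adjusted p 0.522) and -0.08 in ZCCHC8 (edgeR adjusted p 0.481). Spry4 fell by 1.09 in METTL3 (edgeR adjusted p 0.0136), from 11.9 ± 1.027 to 5.80 ± 0.723 CPM in Ctrl, and was at -0.55 in YTHDC1 (edgeR adjusted p 0.058, and 0.00192 with the block) and 0.07 in ZCCHC8 (edgeR adjusted p 0.717). Whether these chase effects differ between lines was not tested. Spred1 fell in ZCCHC8 by 0.29 (edgeR adjusted p 0.00312) and was at 0.16 and -0.002 in METTL3 and YTHDC1, and Spred2 passed in none.

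**Figure D3:**
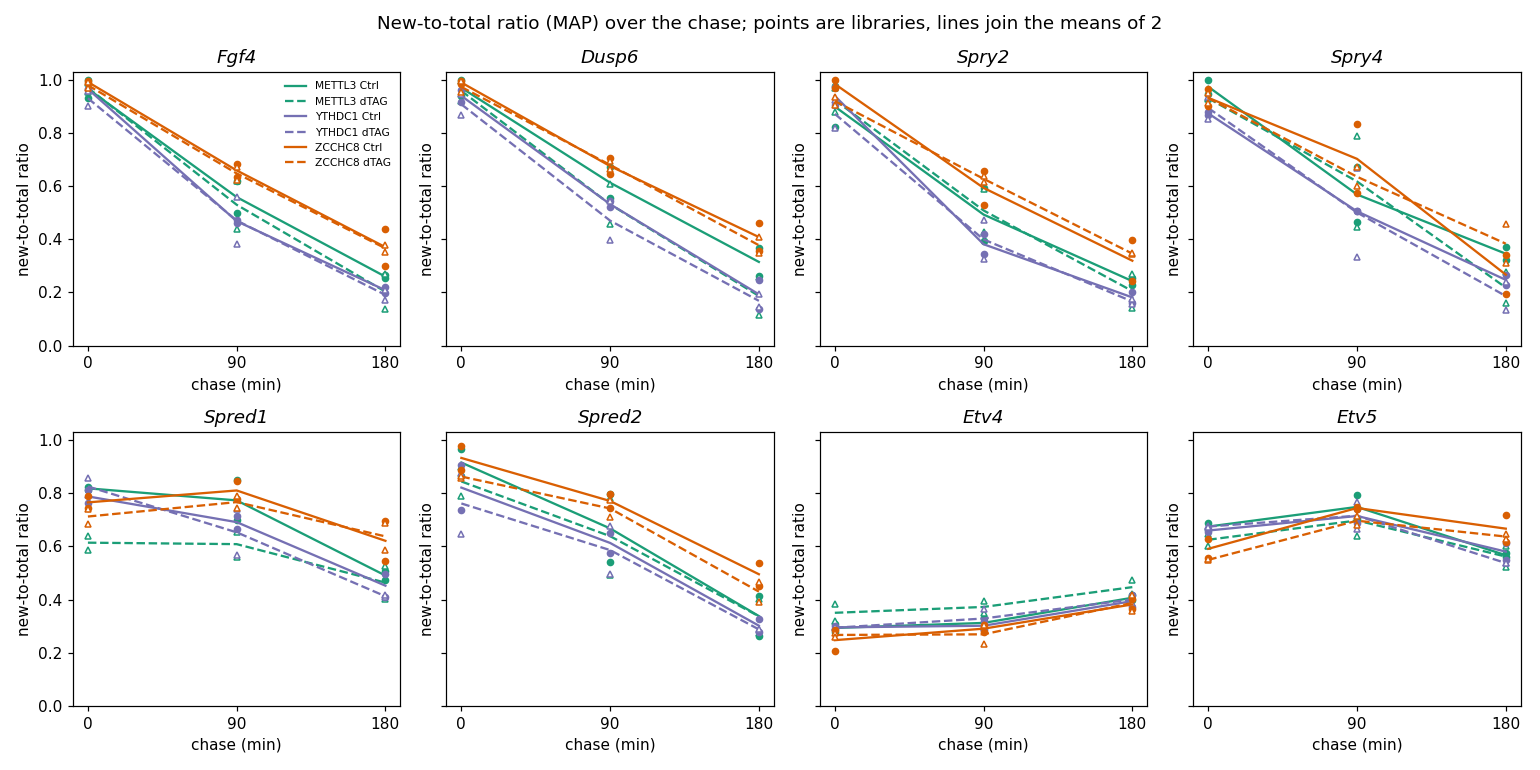
Share of each gene's reads assigned to new RNA (vertical axis, 0 to 1) against minutes of chase, by line and arm; points are libraries and lines join the means of 2. Fgf4, Dusp6, Spry2 and Spry4 start between 0.82 and 1.00 and fall steeply, whereas Etv4 starts between 0.21 and 0.38 and does not fall.

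The share of new RNA, the maximum a posteriori new-to-total ratio of GRAND-SLAM, was high for the ligand and the inhibitors and lower for the PEA3 factors. After 4 h of 4sU, 0.93 to 1.00 of Fgf4 reads, 0.92 to 1.00 of Dusp6 reads and 0.82 to 1.00 of Spry2 reads were new in the 6 Ctrl libraries at 0 min. Spry4 was at 0.87 to 1.00, Spred2 at 0.74 to 0.98 and Spred1 at 0.74 to 0.82. Etv5 was at 0.56 to 0.69 and Etv4 at 0.21 to 0.31, so most Etv4 reads came from RNA that predated the pulse or carried too few conversions to be assigned to it.

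The new share fell most steeply for the ligand and the Sprouty and DUSP6 transcripts. Half-lives below are those of the share, from its log-linear slope over the chase, and not of the RNA. For Fgf4 the half-life was 94.9, 81.3 and 124 min in METTL3, YTHDC1 and ZCCHC8 Ctrl. The share of 0.603%, 0.567% and 0.786% of all genes fell faster. For Dusp6 it was 110, 76.9 and 140 min (2.21%, 0.215% and 1.70% faster). For Spry2 it was 95.4, 75.7 and 108 min (0.70%, 0.159% and 0.179% faster). These genes were thus within the fastest 3% of 7251 to 8820 genes in each line, with Spry4 (120, 98.7 and 96.9 min) within the fastest 5% but under the limit of 100 reads per library set for label. Spry2 in ZCCHC8 was also under that limit, so 7, 7 and 6 of the 8 met it in the 3 lines. Spred2 was slower (122, 125 and 196 min) and Spred1 slower again (243, 223 and 577 min, its ZCCHC8 replicates at 1878 and 341 min). Etv5 lost little label (718 and 964 min, and a rising share in ZCCHC8), its mean share being highest at 90 min in each Ctrl arm so that a single slope describes it poorly. The Etv4 share rose in every line, by 0.16, 0.14 and 0.21 log2 units per h. Both decay and fresh unlabelled transcription lower the share, and with 2 replicates these values are descriptions. In ZCCHC8 Ctrl labelled Fgf4 was at 138, 155 and 103 CPM at 0, 90 and 180 min (means of 2). Labelled Spry2 was at 14.9, 14.2 and 11.2 CPM there. Both fell less than their shares did, and genes were not ranked by labelled CPM. Over all genes the median slope was -0.08, -0.11 and 0.04 log2 units per h. The share fell for 61.09%, 62.55% and 44.61% of genes, so in ZCCHC8 it did not fall for most genes. A rising share was thus not particular to Etv4, although 89.2%, 85.1% and 81.9% of genes had a lower slope. Why shares rose during the chase was not tested.

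**Figure D4:**
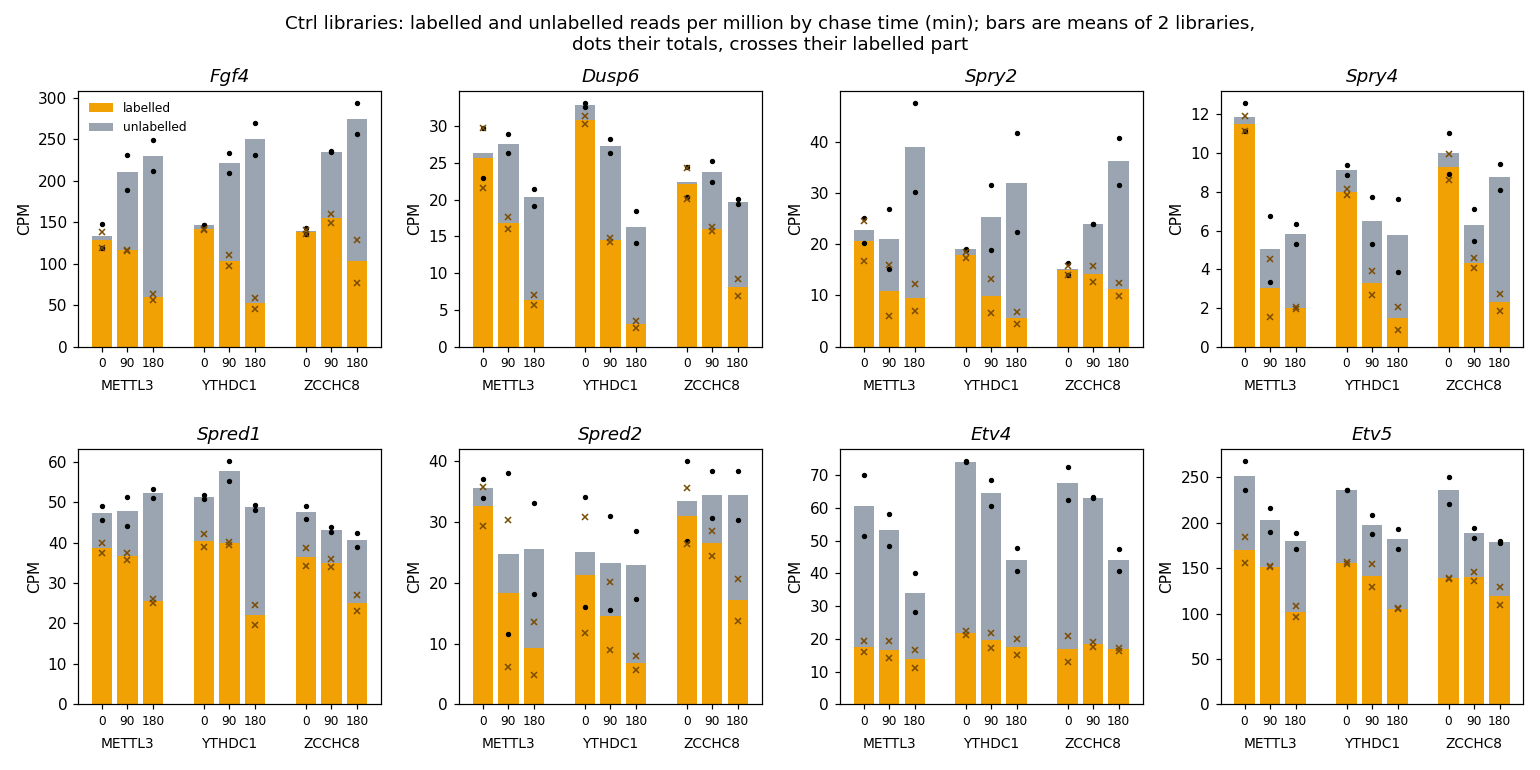
CPM of the 8 genes in Ctrl libraries by line and minutes of chase, stacked as labelled RNA (CPM multiplied by the new share) and unlabelled RNA, bars being means of 2 libraries, dots library totals and crosses library labelled values. In METTL3, labelled Fgf4 drops from 129 to 59.6 while unlabelled Fgf4 grows from 5.02 to 170.

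Split into labelled and unlabelled RNA, the rise of Fgf4 during the chase lay in unlabelled RNA. In METTL3 Ctrl labelled Fgf4 went from 129 ± 13.4 CPM at 0 min to 59.6 ± 4.94 CPM at 180 min, and unlabelled Fgf4 from 5.02 ± 7.10 to 170 ± 21.2 CPM (n = 2). In YTHDC1 Ctrl the labelled part went from 141 to 52.3 CPM and the unlabelled part from 5.06 to 198 CPM, and in ZCCHC8 Ctrl from 138 to 103 CPM and from 1.17 to 171 CPM. Etv4 showed the opposite division. In YTHDC1 Ctrl its labelled part was 21.9 ± 0.821 CPM at 0 min and 17.5 ± 3.26 CPM at 180 min, while its unlabelled part went from 52.2 ± 0.544 to 26.7 ± 1.65 CPM. In METTL3 Ctrl the same parts went from 17.7 to 13.9 and from 43.1 to 20.2 CPM, and in ZCCHC8 Ctrl from 16.9 to 16.8 and from 50.6 to 27.4 CPM. So the loss of Etv4 reads during the chase lay mostly in RNA not assigned to the pulse. Reads with many mismatches were discarded by the authors before counting, and the part of this in the low 0 min counts of heavily labelled genes was not tested.

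Treatment with dTAG-13 changed the new share of Spred1 in the METTL3 line, and was called for no other member tested in any line. The comparison was made on log2 of the share with limma over genes with at least 100 reads in every library of a line. It called 27.1%, 0.306% and 1.14% of genes in METTL3, YTHDC1 and ZCCHC8. The METTL3 Ctrl shares of Spred1 were 0.823 and 0.814 at 0 min, 0.698 and 0.848 at 90 min and 0.472 and 0.509 at 180 min. The dTAG shares were 0.640 and 0.588, 0.562 and 0.655, and 0.402 and 0.526. All dTAG values at 0 min lay below the Ctrl values, and those at 180 min overlapped them. The log2 difference was -0.28 (SE 0.10, limma adjusted p 0.0357), where the median of all genes in METTL3 was -0.15. It was not called without either replicate or when genes with 20 reads or more were let in. Unlabelled Spred1 at 0 min averaged 8.59 ± 0.779 CPM without dTAG-13 and 30.9 ± 2.68 CPM with it, and labelled Spred1 at 38.7 ± 1.73 and 49.8 ± 11.9 CPM (n = 2), so most of the difference in Spred1 reads at the end of the pulse was in RNA without label. Etv4 shares lay 0.21 higher with dTAG-13 in METTL3 (SE 0.08, limma adjusted p 0.0635), which passed with the replicate block (limma adjusted p 0.04, among 37.5% of genes).

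The means of Dusp6 were higher with dTAG-13 in both kinds of RNA, which were not tested apart. At 0 min in the METTL3, YTHDC1 and ZCCHC8 lines its labelled part was 25.7, 30.9 and 22.1 CPM in Ctrl and 34.1, 38.0 and 28.8 CPM in dTAG. At 180 min its unlabelled part was 13.98, 13.2 and 11.6 CPM in Ctrl and 31.7, 24.6 and 18.6 CPM in dTAG (means of 2). In METTL3 Dusp6 lay closer between Ctrl and dTAG in labelled RNA at 180 min (6.33 ± 1.02 and 7.03 ± 3.23 CPM). The same held for its unlabelled RNA at 0 min (0.70 ± 0.93 and 1.40 ± 1.75 CPM). Its new share did not pass in any line, with log2 differences of -0.36 (SE 0.18), -0.13 (SE 0.12) and -0.04 (SE 0.07).

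The rate of label loss was not called different between arms for any member tested. The interaction of arm and chase time called 0.471% of genes in METTL3 and 0.0% in YTHDC1 and ZCCHC8 (0 genes by limma, with 195 and 147 at an unadjusted p below 0.05). The largest value among the 8 was that of Dusp6 in METTL3, -0.28 log2 units per h (SE 0.15, limma adjusted p 0.815, approximate 95% interval -0.56 to 0.01). The half-lives of its share were 110 min in Ctrl and 72.7 min in dTAG. With replicate 2 left out the Dusp6 value was -0.39, with Fgf4 at -0.31 and Spry2 at -0.27. Without replicate 1 these 3 were at -0.17, 0.01 and 0.03. Either fit leaves 1 library per arm and chase time, so no call is drawn from it. This difference, not called with both replicates, lay mostly in replicate 1 and was not seen in these 3 transcripts alone. In replicate 1 the Spry4 slope also went from -0.45 in Ctrl to -0.85 in dTAG. The percentage of genes with a faster fall than Fgf4, Dusp6 and Spry2 was 0.603%, 2.21% and 0.70% in Ctrl. It was 0.531%, 0.302% and 0.615% in dTAG. A difference from other genes was not tested. In YTHDC1 and ZCCHC8 the approximate 95% intervals of the members that met the limit of 100 reads lay within -0.26 to 0.21 log2 units per h. With genes of 20 reads or more let in, those of Spry4 were -0.44 to 0.11 in YTHDC1 and -0.09 to 0.45 in ZCCHC8, and that of Spry2 in ZCCHC8 was -0.09 to 0.26.

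Across all 36 libraries, with the mean of each line removed, the 8 transcripts did not form 1 group. Dusp6 and Etv4 varied most alike (Pearson r 0.74 across 36 libraries), followed by Etv4 and Etv5 (0.67) and Spry4 and Etv4 (0.64), whereas Fgf4 ran against Etv5 (-0.76) and Etv4 (-0.65). Spry2 and Spry4, of the same family, had an r of 0.16, and Spred1 and Spred2 one of -0.27. Against the mean profile of the 8, Spry4 (0.81), Dusp6 (0.80) and Etv4 (0.72) stood highest and Fgf4 lowest (-0.27). The 5 genes outside the 8 most like that profile were Clu (0.84), Cavin1 (0.83), Mmp2 (0.83), Pcnx (0.82) and Pced1a (0.81). These points share arms, chase times and replicate numbers, and the values are descriptions.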

How the data were processed

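SLAM-seq libraries of 3 degron mES cell lines, in 2 arms, 3 chase times and 2 replicates, were analysed from 6 tables holding 252 columns of these libraries. A further 180 columns of per-sample values were not used. The authors removed rRNA reads, aligned the rest with STAR (2.5.2b) to mm10 and ran GRAND-SLAM with a UCSC annotation; its version and its use of strand are not given in the sources used here. The deposited tables gave, per gene and library, raw read counts. The deposited new-to-total ratio is a fraction, given as a posterior mode and mean with the bounds of its 90% credible interval, estimated separately in each table. The deposited conversions and coverage are signal summed over T positions by the authors.

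Groups came from the labels. Read counts were tested with edgeR (4.0.16) in R (4.3.3), with TMM, its filter on low counts and the quasi-likelihood test, for arm and chase time within a line and for differences between lines over all 36 libraries. Fitted genes numbered 14413, 14199 and 13962 in the METTL3, YTHDC1 and ZCCHC8 lines. log2 of the ratio was tested with limma (3.58.1) over genes with at least 100 reads in every library of a line and a ratio of at least 0.02. p-values were adjusted over all genes tested at a threshold of 0.05, and measure only the spread between these samples, since no label says that they came from separate cultures. Intervals of differences are 95% by a normal approximation from the SE. They ignore the residual degrees of freedom and are narrower than the edgeR and limma tests imply. No spike-in was used, so levels are relative to the library. Half-lives are those of the new share, not of the RNA, and come from a log-linear fit per replicate. Scripts were tested on simulated data.

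Same-numbered libraries deviated together, with correlations of 0.644 to 0.801 (METTL3), 0.709 to 0.769 (YTHDC1) and 0.187 to 0.197 (ZCCHC8) over 15354 genes, so the number pairs them and a replicate block was an alternative. Others were DESeq2 (1.42.0), DESeq2 size factors, no filter, chase libraries summed, libraries left out, 20 reads and labelled CPM. The fit of dTAG libraries alone was chosen after seeing the data. Members and lists were chosen with earlier results of these data known. Beyond the 8, the 3 genes with the smallest adjusted p of each list and line that also moved 1 way in all 6 pairs were named, and called genes of the marker lists. A gene that this rule names is not reported here. Likeness used log2(CPM + 0.5).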

Additional observations from a re-analysis of the deposited data

Results flagged for a closer look

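The response to dTAG-13 differed between lines for 3 of the 8 genes, by a test of the difference itself over 36 libraries (edgeR). METTL3 minus YTHDC1 called 2 of the 8 and 16.2% of all genes, and ZCCHC8 minus METTL3 called 2 and 19.5%. With the replicate block these were 3 and 40.5%, and 3 and 41.6%, so the 8 were near the share of all genes. For Spred1 the METTL3 response exceeded that of YTHDC1 by 0.60 log2 units (SE 0.149 and edgeR adjusted p 0.00763, and 4.59e-05 with the replicate block). The ZCCHC8 response of Spred1 minus that of METTL3 was -1.01 (SE 0.15, edgeR adjusted p 5.06e-05, and 1.83e-08 with the block). For Spry2, ZCCHC8 minus METTL3 was 0.85 (SE 0.275, edgeR adjusted p 0.0317, and 2.26e-05 with the block). For Etv5, METTL3 minus YTHDC1 was -0.31 (SE 0.103, edgeR adjusted p 0.0422, and 0.00203 with the block). Each line is 1 clone, so line and clone cannot be told apart. Groups of 2 libraries were too small to look for single libraries that stand apart.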

How the results depend on the processing

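Counts are of the 8 genes called. For dTAG against Ctrl, summing the chase libraries left 0 in METTL3 and 0 in YTHDC1 (3 and 3 as reported); YTHDC1 gave 6 with the replicate block and 0 without the 0 min libraries, and ZCCHC8 gave 3 in place of 5 with all 36 libraries in 1 fit. With 1 replicate left out, each line, arm and chase time held 1 library, so counts from those fits are not given here. At 90 min of chase, METTL3 (0 as reported) gave 2 with the block and 2 with DESeq2 (309 of 14413 genes). There YTHDC1 (1) gave 3 with the block, 2 with DESeq2 (1508 of 14199 genes), and 0 in Ctrl alone or dTAG alone (0 of 14083 and 0 of 14094 genes). At 180 min METTL3 (2) gave 5 with the block, 4 with DESeq2 (3201 of 14413 genes), and 0 in Ctrl alone or dTAG alone. YTHDC1 (5) gave 0 in either arm alone. For METTL3 minus YTHDC1, no filter on low counts left 1 of 2. For ZCCHC8 minus YTHDC1 (0), the block gave 3. For the new share in METTL3 (1), the block gave 2 and a limit of 20 reads gave 0 (2389 of 11366 genes). Label loss in METTL3 (0) gave 0 under every alternative that kept both replicates. The median Ctrl slope of label was -0.48, -0.54 and -0.37 log2 units per h in METTL3, YTHDC1 and ZCCHC8. It was -0.37, -0.45 and -0.19 from labelled CPM, and -0.38, -0.40 and -0.21 from the 0 and 90 min libraries. The cause of these shifts was not tested. Of 1004 values of single genes under alternatives, 894 stayed on the same side of the threshold in the same direction or were uncalled in both, 47 lost a call, 63 gained one and 0 reversed. For the 8 genes, apart from the calls counted here and in the report, the block changed no other call. In the gene and marker lists it changed further calls. Of the 10 mES cell markers in METTL3, for example, none was called without it, and 3 rose and 2 fell with it. Spry4, with 45 reads in its shallowest library, is limited by depth.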
